A study of Rattus norvegicus with 40 samples.

Results

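Igf1, Erbb2, Irs1, Gsk3b, Mtor and Fbxo32 are 6 genes of growth signalling and muscle wasting, followed here across 4 groups of rat right ventricles. They were chosen by name from the genes of the array, with earlier results of these data known. The array carried 14 probes for them among 40941 probes in all, and all 6 genes were among the 9775 genes that had enough values to be tested. Igf1 had 8 probes, of which 5 entered the test, Erbb2 had 2, of which 1 entered it, and each of the other genes had 1 probe. Among the tested probes, 5, for Irs1, Mtor, Gsk3b, Erbb2 and Igf1, were printed in 10 spots each, whereas Fbxo32 rested on 1 spot per array.

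Insulin and insulin-like growth factor bind receptor tyrosine kinases on the cell surface, which pass the signal through insulin receptor substrates to phosphoinositide kinase, Akt and the kinase mTOR, and so raise protein synthesis. Akt switches off glycogen synthase kinase and the FoxO transcription factors, and FoxO factors drive ubiquitin ligases that mark muscle proteins for breakdown. In the heart this pathway controls the size of cardiomyocytes, and ErbB receptors for neuregulin feed into it.

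Right ventricles came from 24 male Sprague Dawley rats, 6 in each group, and were measured on 40 arrays with 2 colours. SuHx with carvedilol animals (8 arrays) received SU5416, which inhibits VEGF receptors, at 20 mg/kg, breathed 10% oxygen for 4 weeks and then had the beta and alpha blocker carvedilol at 15 mg/kg daily for 4 weeks in room air. SuHx animals (12 arrays) had the same SU5416 and hypoxia and then 2 weeks at sea level. Hypoxia animals (12 arrays) breathed 10% oxygen for 4 weeks with no SU5416, and no return to room air is named for them. Normal animals (8 arrays) had none of these treatments. Animals are called 1 to 6 within a group, after the biological replicate number in the labels. The groups thus differ in the time between hypoxia and sampling, and no animals given only the solvents of SU5416 or carvedilol were analysed here. SuHx is widely used to model right heart failure, and hypoxia alone to model a compensated ventricle, and the comparisons ask how growth signalling genes differ between these states and with carvedilol.

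Each value is a log2 ratio of ventricle RNA over a reference RNA pooled from 14 rat cell lines, so that a level of 0 means the same signal in both, and levels of different genes cannot be set against each other. An array held between 19264 and 35758 spots with a value. The number averaged 26035 (SD 2092) in Hypoxia animals and 33254 (SD 2949) in Normal animals (two-sided exact permutation test over 6 and 6 animals, p = 0.00433, adjusted p = 0.0195 over 6 tests). It was also lower than in Normal animals in SuHx with carvedilol animals, at 28432 (SD 1852, exact permutation adjusted p = 0.0216), and in SuHx animals, at 28142 (SD 836, adjusted p = 0.0195), whereas neither SuHx group passed the test against Hypoxia (adjusted p = 0.0753 and 0.0552). The SD of the log2 ratios on an array ran from 1.88 to 2.38 over Hypoxia arrays and from 1.57 to 1.81 over Normal arrays, without overlap. It ran from 1.73 to 1.98 over SuHx arrays and from 1.87 to 2.12 over SuHx with carvedilol arrays. Results with arrays scaled to equal spread are given below. The 8 cardiomyocyte markers examined lay between 3.75 and 5.59 on the log2 scale in Normal ventricles, so their signal was well above that of the reference lines. Between Hypoxia and Normal animals 0 of 5 tested fibroblast, 0 of 6 endothelial and 0 of 3 smooth muscle and pericyte markers changed, while 1 of 8 cardiomyocyte (the calcium release channel Ryr2), 1 of 6 macrophage and 1 of 3 atrial markers were lower and 1 of 2 adipocyte markers was higher. The mean level of the 8 cardiomyocyte markers ran from 3.91 to 5.04 over Hypoxia animals and from 4.29 to 5.49 over Normal animals. In bulk tissue, fewer cells of a type and less RNA per cell cannot be told apart.

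After 4 weeks of hypoxia, 4 of the 6 genes were lower than in Normal ventricles and 1 was higher. Gsk3b, Mtor, Fbxo32 and Erbb2 fell, Irs1 rose, and Igf1 did not pass the test. The rise of Irs1 was not called on arrays with at least 5 of its 10 spots read. For comparison, 12% of all tested genes were called in this comparison (11.2% of all genes lower and 0.839% higher), and the median change of all tested genes was itself -0.38 on the log2 scale. Because the 6 genes were chosen with earlier results of these data known, their share cannot be weighed against that of all genes. In SuHx animals, and in SuHx animals given carvedilol, 0 of the 6 genes differed from Normal by the limma test, where 0.91% (0.389% higher and 0.522% lower) and 10.5% (2.18% higher and 8.34% lower) of all genes were called. Gsk3b, Mtor and Fbxo32 were higher in both of these groups than in Hypoxia animals, where 11.2% (9.46% higher and 1.78% lower, SuHx) and 16.4% (10.1% higher and 6.28% lower, SuHx with carvedilol) of all genes were called. Carvedilol made no called difference to any of the 6 genes within SuHx animals, against 0.849% of all genes called (0.297% higher and 0.552% lower). Animals given carvedilol also spent longer in room air than SuHx animals, and the 2 cannot be told apart. These comparisons share groups of animals and are not independent of each other: Hypoxia animals enter 3 of them.

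**Figure D1:**
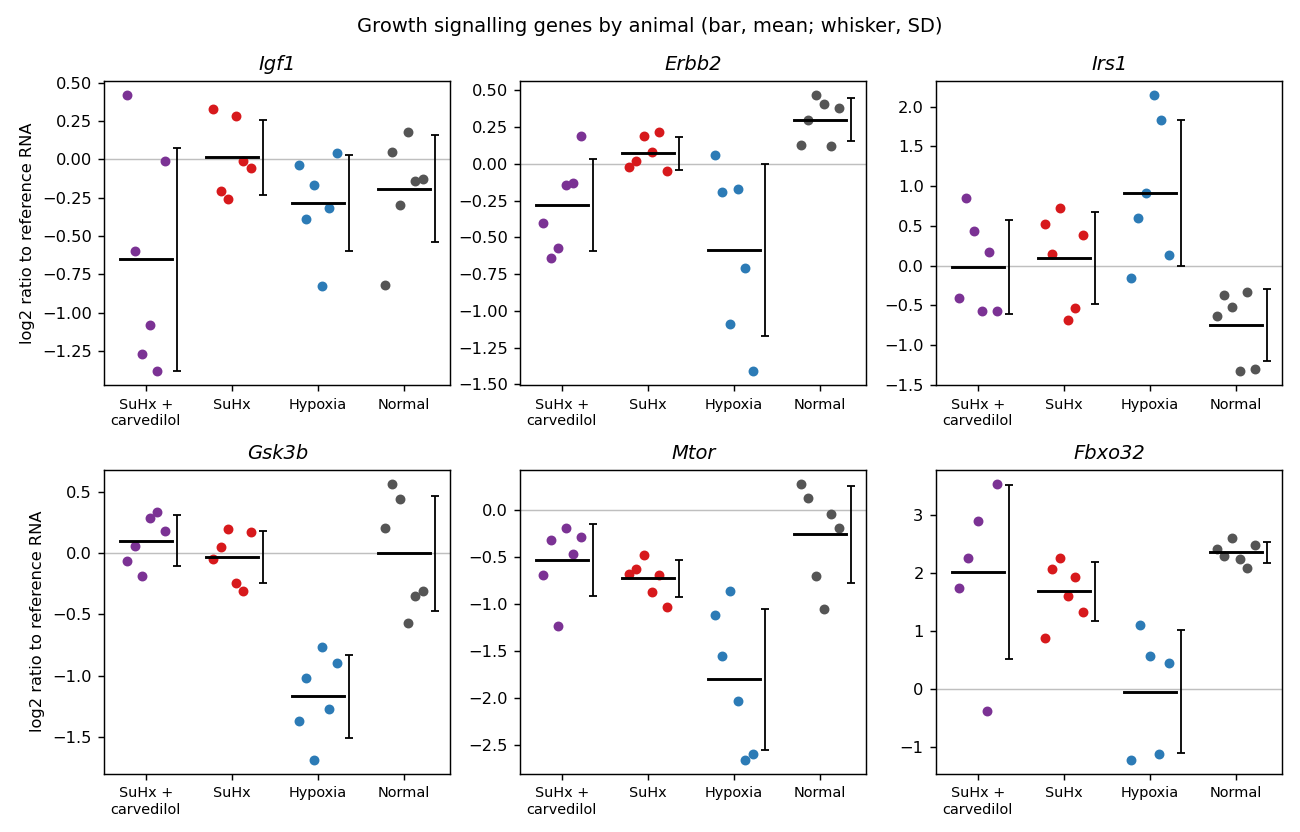
Log2 ratio of ventricle over reference RNA (y axis, a scale of its own in each panel) of 6 genes in each animal, by group (x axis). Points are animals, bars the mean and whiskers the SD. Gsk3b in Hypoxia animals lay between -1.69 and -0.77, below every animal of the other groups, and Fbxo32 lacked a value in 1 Hypoxia and 1 SuHx with carvedilol animal.

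The promoter windows of 4 of the genes that changed with hypoxia are shown because they are the regions next to the start sites of genes that moved in these data: 3 of them fell and Irs1 rose. They are taken from RefSeq (rat build GRCr8), run from 250 bases before to 50 bases after the annotated start, and are written 5′ to 3′ on the strand of the gene. A promoter entry was matched for 5 of the 6 genes, Fbxo32 having none, and that of Igf1 held no match to any motif. Capitals mark matches, on either strand, to GGGCGG (a GC box), ACGTG (the core bound by hypoxia-inducible factors) and GTAAACA (a FoxO site).
Gsk3b, chr11:76153200-76153499, minus strand: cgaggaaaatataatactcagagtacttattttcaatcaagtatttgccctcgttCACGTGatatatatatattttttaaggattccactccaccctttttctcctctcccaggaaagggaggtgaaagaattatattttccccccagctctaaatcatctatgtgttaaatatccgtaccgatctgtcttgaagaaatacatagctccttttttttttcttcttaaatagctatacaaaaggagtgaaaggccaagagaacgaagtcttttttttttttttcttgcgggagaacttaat
Mtor, chr5:164167735-164168034, plus strand: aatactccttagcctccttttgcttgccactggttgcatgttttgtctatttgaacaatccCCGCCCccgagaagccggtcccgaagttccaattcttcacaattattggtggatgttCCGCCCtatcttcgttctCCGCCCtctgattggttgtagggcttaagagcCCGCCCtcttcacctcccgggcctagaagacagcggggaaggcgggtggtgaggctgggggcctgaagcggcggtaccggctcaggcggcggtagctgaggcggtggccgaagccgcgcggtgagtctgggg
Erbb2, chr10:83907351-83907650, plus strand: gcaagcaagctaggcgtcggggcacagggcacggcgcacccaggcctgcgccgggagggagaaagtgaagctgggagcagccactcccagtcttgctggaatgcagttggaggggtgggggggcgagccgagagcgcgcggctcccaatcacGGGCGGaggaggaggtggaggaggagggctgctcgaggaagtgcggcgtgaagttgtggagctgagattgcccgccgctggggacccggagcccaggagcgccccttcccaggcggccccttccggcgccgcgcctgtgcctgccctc
Irs1, chr9:91053910-91054209, minus strand: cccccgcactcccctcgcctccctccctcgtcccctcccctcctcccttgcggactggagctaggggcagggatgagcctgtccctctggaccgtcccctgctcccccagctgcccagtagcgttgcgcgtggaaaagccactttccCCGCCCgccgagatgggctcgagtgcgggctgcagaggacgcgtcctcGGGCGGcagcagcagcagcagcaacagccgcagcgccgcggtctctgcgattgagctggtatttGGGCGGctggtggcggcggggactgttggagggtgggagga
GC boxes stood at 4 places in the Mtor window, 3 in the Irs1 window and 1 in the Erbb2 window, and 33.1% of 33469 promoter windows hold at least 1. The Gsk3b window held the hypoxia core on both strands of a single palindrome, starting 195 bases before the start site, which counts as 2 overlapping matches, and 19.3% of all windows hold the core. A FoxO site occurred in 0 of these 5 windows and in 3.8% of all windows. The Irs1 and Erbb2 windows are 70.3% and 71.3% G and C, that of Mtor 60.0% and that of Gsk3b 34.7%, around a median of 51.7% over all windows. These matches describe letters only, and binding was not measured.

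Among the ligands stands Igf1, insulin-like growth factor 1, which promotes growth of cardiomyocytes. Its mean over 5 probes had a lowest, median and highest value of -1.38, -0.84 and 0.42 in SuHx with carvedilol animals, -0.26, -0.04 and 0.33 in SuHx, -0.83, -0.25 and 0.04 in Hypoxia and -0.82, -0.14 and 0.18 in Normal animals. The 4 groups overlapped, with 4 of the carvedilol animals at or below -0.60. Hypoxia differed from Normal by -0.09 ± 0.27 (SE, 95% interval -0.65 to 0.47, limma adjusted p = 0.864). SuHx with carvedilol differed from SuHx by -0.66 ± 0.27, with p = 0.0223 before and 0.226 after limma's Benjamini-Hochberg adjustment, so the difference was not called. From low to high the groups ran SuHx with carvedilol, Hypoxia, Normal and SuHx, and no neighbours in that order differed.

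The low values of Igf1 after carvedilol came from a part of its probes. Probe A_44_P421499 read -5.59, -5.13, -4.12 and 0.02 in 4 SuHx with carvedilol animals and had no reading in the other two. In SuHx animals this probe lay between -1.93 and 0.03, above 3 of the 4 carvedilol values. For the same comparison the 3 probes with 1 spot that were read on every array changed by -0.26 ± 0.19, -0.24 ± 0.28 and -0.22 ± 0.33. The probe with 10 spots also had a value on every array and changed by -0.73 ± 0.39. None of these was called. Another setting used 1 probe in place of the mean of probes. Of the probes with values on all 40 arrays it took the one with the highest mean level, A_44_P394336. The difference was then -0.22 (limma adjusted p = 0.781). With each probe centred before averaging, a setting chosen after seeing the data, it was -0.78 (limma adjusted p = 0.13). The 3 Igf1 probes outside the test had values in 12, 9 and 5 of the 24 animals, between -3.00 and 3.45.

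**Figure D2:**
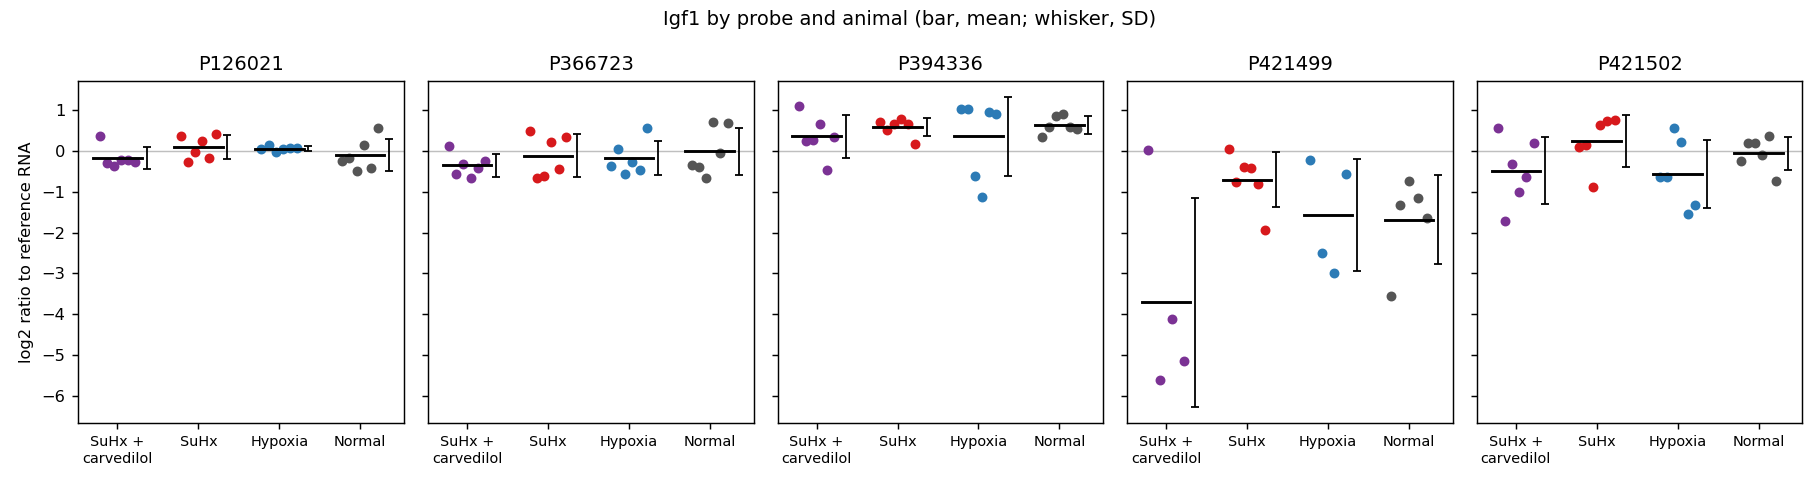
Log2 ratio of ventricle over reference RNA (y axis) by group (x axis) for the 5 tested Igf1 probes, named by the end of their identifier. Points are animals, bars the mean and whiskers the SD. In 3 SuHx with carvedilol animals probe P421499 read between -5.59 and -4.12, whereas the other 4 probes stayed between -1.72 and 1.09 in that group.

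Erbb2, the receptor tyrosine kinase that pairs with neuregulin receptors, fell with hypoxia. Its lowest, median and highest values were -1.41, -0.45 and 0.06 in Hypoxia animals and 0.12, 0.34 and 0.47 in Normal animals. Every Hypoxia animal was below every Normal animal, and 3 of the 6 lay at -0.71 or lower while the others lay between -0.19 and 0.06. The value of -1.09, from animal 3, was the mean of an array at -2.20 from 3 spots and another at 0.02 from 10 spots. On arrays with at least 5 of 10 spots read, a restriction chosen after seeing the data, the Hypoxia mean was -0.40 (SD 0.57). That of Normal was 0.30 (SD 0.15). Over all arrays Hypoxia differed from Normal by -0.89 ± 0.22 (limma adjusted p = 0.0101), a level 0.54 times that of Normal. A lower change was held by 23.7% of tested genes. Without the 2 Hypoxia animals whose label numbers are over 100, the difference was -0.65 and missed the threshold (limma adjusted p = 0.0512).

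In the other groups Erbb2 stood between these levels. It had a lowest, median and highest value of -0.64, -0.27 and 0.19 in SuHx with carvedilol animals and of -0.05, 0.05 and 0.22 in SuHx animals. SuHx with carvedilol differed from Normal by -0.58 ± 0.22 (limma adjusted p = 0.0878) and from SuHx by -0.35 ± 0.22 (limma adjusted p = 0.432), and neither was called. SuHx exceeded Hypoxia by 0.66 ± 0.22 (limma adjusted p = 0.0528), just short of the threshold. That difference passed the test when Hypoxia animal 1, 2 or 4 was left out, with 0.79, 0.74 and 0.74 (limma adjusted p = 0.0222, 0.0396 and 0.0348). A second Erbb2 probe, on 1 spot, was read in 3 of 6 Hypoxia animals, at -7.54, -0.49 and -0.16, and in all Normal animals, between -0.46 and 1.43, so that it did not enter the test.

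Irs1, the adaptor that couples insulin and insulin-like growth factor receptors to phosphoinositide kinase, was the gene of the 6 that rose. Its lowest, median and highest values were -0.15, 0.75 and 2.15 in Hypoxia animals and -1.33, -0.58 and -0.33 in Normal animals. All Hypoxia animals lay above all Normal animals, but they spread over a wide range (SD 0.92 against 0.45). The difference was 1.66 ± 0.38 (limma adjusted p = 0.00613), a level 3.16 times that of Normal, and 98.8% of tested genes had a lower change.

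That rise rested on few spot readings. In Hypoxia animals 40% of Irs1 spot readings were present (48 of 120), against 80% in Normal animals (64 of 80). The value of 2.15 was the mean of an array at 4.70 from 1 spot and a second array of the same animal at -0.40 from 6 spots, and the value of 1.83 came from 1 spot. On arrays with at least 5 of 10 Irs1 spots read, a restriction chosen after seeing the data, the group mean was 0.09 (SD 1.02) over the 4 Hypoxia animals left and -0.85 (SD 0.49) over 6 Normal animals. The difference was then 0.94 and was not called (limma adjusted p = 0.169). With only the first array of each animal the difference was 1.73, also not called (limma adjusted p = 0.082). Within an array, spots of the Irs1 probe differed by a median SD of 1.37, against 1.05 over 260 probes printed in 10 spots.

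Irs1 in the SuHx groups lay between the levels of Hypoxia and Normal animals. The lowest, median and highest values were -0.57, -0.12 and 0.85 in SuHx with carvedilol animals and -0.68, 0.27 and 0.73 in SuHx animals. SuHx exceeded Normal by 0.85 ± 0.38 (limma adjusted p = 0.35) and SuHx with carvedilol exceeded Normal by 0.73 ± 0.38 (limma adjusted p = 0.221), neither of them called. From low to high the order was Normal, SuHx with carvedilol, SuHx and Hypoxia, and no neighbours differed. Spot readings were present at 52.5% in SuHx with carvedilol and 39.2% in SuHx animals.

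**Figure D3:**
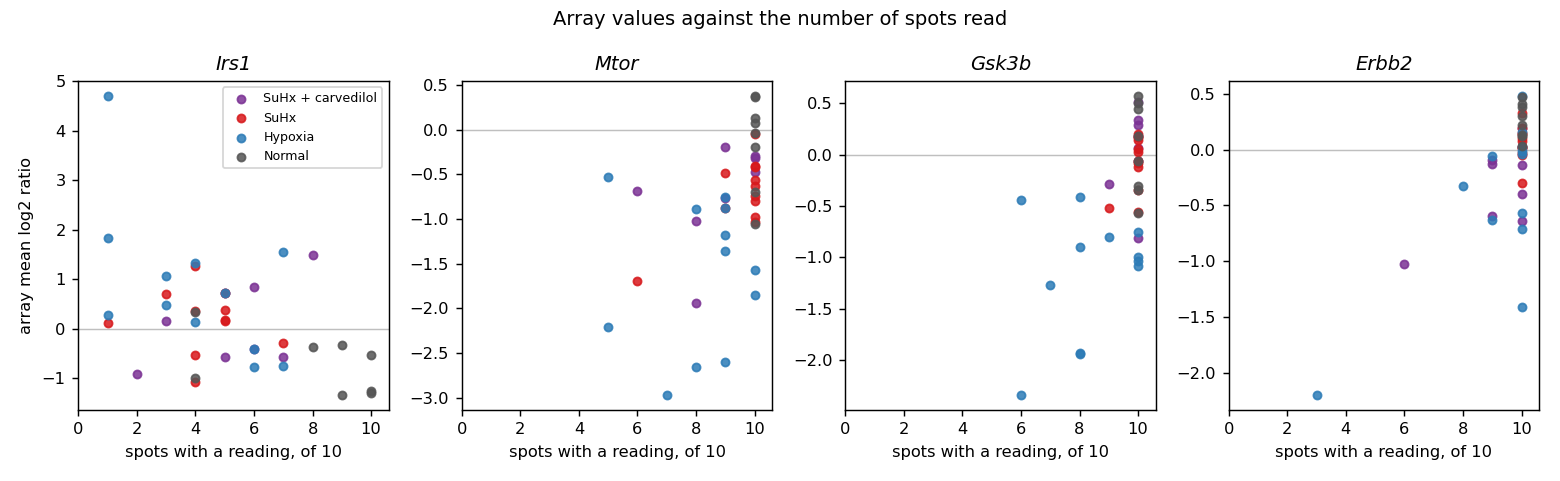
Mean log2 ratio of an array (y axis, a scale of its own in each panel) against the number of the probe's 10 spots with a reading on that array (x axis), for the probes of Irs1, Mtor, Gsk3b and Erbb2. Each point is an array, coloured by group. The highest Irs1 array, at 4.70, had 1 spot read, and the Normal arrays of Mtor, Gsk3b and Erbb2 all had 10.

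Gsk3b, the kinase that Akt switches off and that restrains growth while active, separated Hypoxia animals from all others by animal means. Its lowest, median and highest values were -1.69, -1.15 and -0.77 in Hypoxia animals and -0.57, -0.05 and 0.57 in Normal animals. The groups did not overlap, and Hypoxia differed from Normal by -1.17 ± 0.21 (limma adjusted p = 0.00113), a level 0.445 times that of Normal. A lower change was held by 15.2% of tested genes. Single arrays did overlap: Hypoxia arrays at -0.41 and -0.44 lay above a Normal array at -0.57 and a SuHx with carvedilol array at -0.81. Arrays of a Hypoxia animal differed by a median SD of 0.73 over the 4 animals with several arrays, against an SD of 0.34 between animals. Of the 6 genes, Gsk3b, Irs1, Erbb2 and Fbxo32 had no overlap between Hypoxia and Normal animals, as did 6.98% of all tested genes.

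Both SuHx groups had Gsk3b levels around those of Normal animals. The lowest, median and highest values were -0.19, 0.12 and 0.34 in SuHx with carvedilol animals and -0.31, 0.00 and 0.20 in SuHx animals. Neither group overlapped with Hypoxia, as held for 7.14% of all genes with carvedilol and 7.16% without, and both overlapped with Normal. SuHx exceeded Hypoxia by 1.14 ± 0.21 (limma adjusted p = 0.00135) and SuHx with carvedilol exceeded it by 1.27 ± 0.21 (limma adjusted p = 0.000262). SuHx differed from Normal by -0.03 ± 0.21, with a 95% interval from -0.46 to 0.41, and SuHx with carvedilol differed from SuHx by 0.13 ± 0.21, with an interval from -0.30 to 0.56. Of the Gsk3b spot readings, 98.8% were present in SuHx with carvedilol, 99.2% in SuHx, 83.3% in Hypoxia and 100% in Normal animals.

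Mtor, the catalytic subunit of both mTOR complexes, fell with hypoxia as well. Its lowest, median and highest values were -2.66, -1.79 and -0.86 in Hypoxia animals and -1.05, -0.11 and 0.28 in Normal animals. The ranges overlapped through the highest Hypoxia and the lowest Normal animal. The difference was -1.54 ± 0.30 (limma adjusted p = 0.00202), a level 0.344 times that of Normal, and 7.83% of tested genes had a lower change. The 2 Hypoxia animals numbered over 100 had the lowest values, -2.66 and -2.60.

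By animal means Mtor lay within a narrow band in SuHx animals (SD 0.19). Arrays of a SuHx animal differed by a median SD of 0.41 over the 3 animals with several arrays. SuHx animal 4 averaged an array at -1.69 from 6 spots and another at -0.05 from 10 spots. The lowest, median and highest values were -1.24, -0.39 and -0.19 in SuHx with carvedilol animals and -1.03, -0.68 and -0.48 in SuHx animals, overlapping with the upper part of the Hypoxia range and with Normal. SuHx with carvedilol exceeded Hypoxia by 1.27 ± 0.30 (limma adjusted p = 0.00544) and SuHx exceeded it by 1.07 ± 0.30 (limma adjusted p = 0.0224). The second of these calls was lost without Hypoxia animal 5 (0.90, limma adjusted p = 0.0533) or 6 (0.91, adjusted p = 0.0521), and without both of them the difference was 0.66 (adjusted p = 0.144). SuHx differed from Normal by -0.47 ± 0.30 (limma adjusted p = 0.582), and SuHx with carvedilol differed from SuHx by 0.20 ± 0.30 (limma adjusted p = 0.791). The order from low to high was Hypoxia, SuHx, SuHx with carvedilol and Normal, of which only the first step passed the test.

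Fbxo32, the muscle ubiquitin ligase also called atrogin-1, had the largest change of the 6 genes with hypoxia. It had a value in 5 of 6 Hypoxia animals, with a lowest, median and highest value of -1.23, 0.44 and 1.11, and in all 6 Normal animals, with 2.09, 2.36 and 2.61. By animal means, no Hypoxia animal reached the Normal range. The difference was -2.41 ± 0.53 (limma adjusted p = 0.00607), a level 0.189 times that of Normal, and 1.64% of tested genes had a lower change. The Hypoxia value of 0.56, from animal 3, was the mean of 2 arrays at 4.23 and -3.10, of which the first lay above every Normal animal. The call held in all 12 fits that left out 1 animal, with differences from -2.70 to -2.11 (limma adjusted p up to 0.018). The single Fbxo32 spot was read on 66.7% of Hypoxia and 87.5% of Normal arrays.

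In the SuHx groups Fbxo32 was variable. It had a lowest, median and highest value of -0.39, 2.27 and 3.55 in the 5 SuHx with carvedilol animals with a value and of 0.88, 1.77 and 2.27 in SuHx animals. A single carvedilol animal lay among the Hypoxia animals, and the other four lay above them. SuHx with carvedilol exceeded Hypoxia by 2.07 ± 0.56 (limma adjusted p = 0.0146, 5 animals each) and SuHx exceeded it by 1.73 ± 0.53 (limma adjusted p = 0.0399). The second call was lost in 7 of 12 fits that left out 1 animal, with limma adjusted p up to 0.103: without Hypoxia animal 1 or 4 (1.44 and 1.46) and without SuHx animal 2, 3, 4, 5 or 6 (between 1.62 and 1.80). SuHx differed from Normal by -0.67 ± 0.51 (limma adjusted p = 0.662) and SuHx with carvedilol from SuHx by 0.33 ± 0.53 (limma adjusted p = 0.803).

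**Figure D4:**
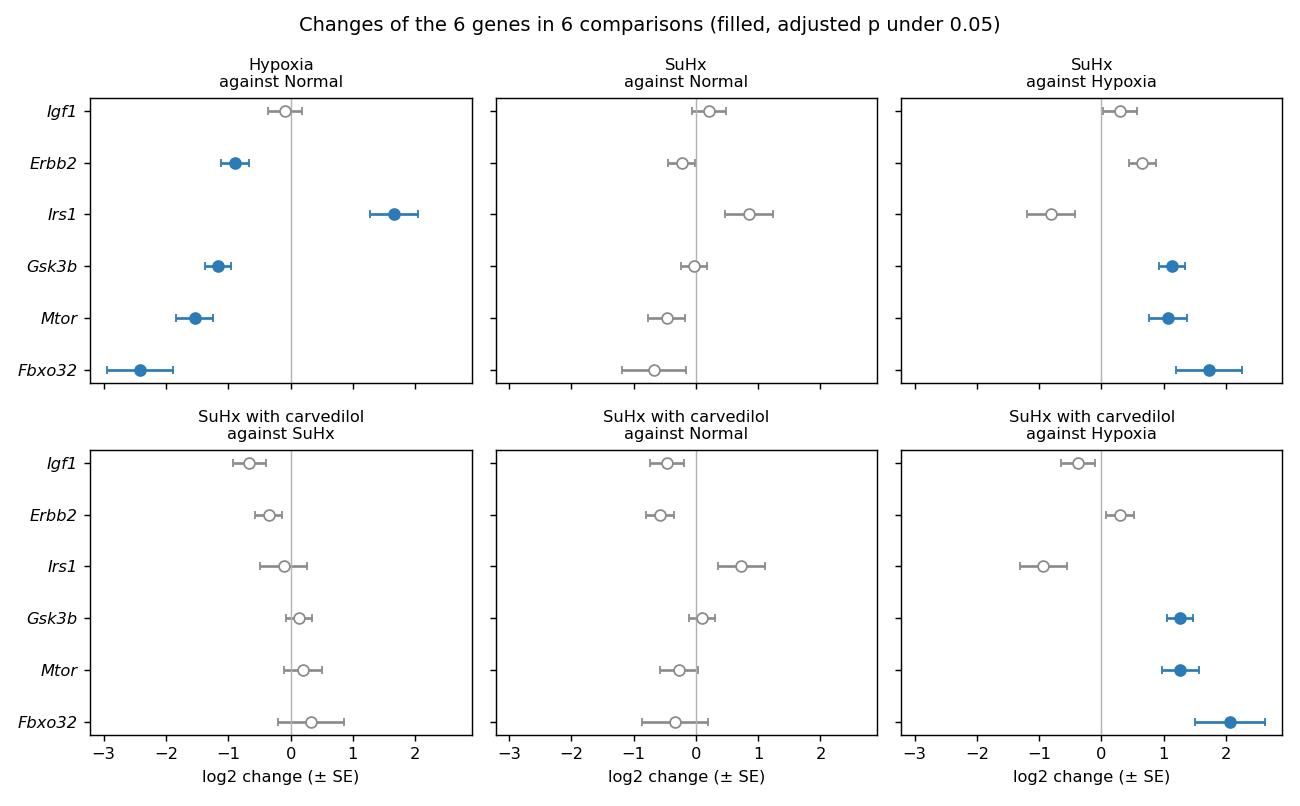
Log2 change (x axis, with the standard error as whisker) of 6 genes (y axis) in 6 comparisons, each named above its panel with the group on top of the change first. Filled points passed a limma adjusted p under 0.05. The 5 called changes of Hypoxia against Normal run from -2.41 for Fbxo32 to 1.66 for Irs1, and the panels that set SuHx groups against Normal hold no filled point.

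All 6 carvedilol animals, and Hypoxia animals 5 and 6, carry label numbers over 100, while all Normal and SuHx animals carry lower ones, and what the numbers mark is not given. Between carvedilol and Hypoxia animals numbered over 100 alone, a comparison added after seeing the data, Mtor differed by 2.10 (limma adjusted p = 0.0355), Gsk3b by 1.19 (adjusted p = 0.0937) and Fbxo32 by 1.58 (adjusted p = 0.615). Mtor and Gsk3b had 2 Hypoxia animals in this fit and Fbxo32 only 1, which is assumed to vary like the other animals of the fit. In this restricted fit 1 of the 6 genes was called, in place of 3, and 145 of all genes in place of 1606. Without Hypoxia animals 5 and 6, the differences of Hypoxia from Normal kept their calls for Gsk3b, Mtor, Fbxo32 and Irs1.

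Around these 6 genes, a list of 85 genes of the pathway was followed by role, of which 78 were named on the array and 69 were tested, the 6 genes included. The list, too, was chosen with earlier results of these data known. In Hypoxia against Normal animals 10 of the 69 fell and 1 rose, the 1 being Irs1, which is 15.9% of them against 12% of all tested genes. Without the 6 genes, 6 of 63 fell and 0 rose (9.52%), so that the share of the other pathway genes was near that of all genes. The median change of the 69 genes was -0.48, against -0.38 over all genes.

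By role, 4 of 13 tested genes of the mTOR complexes and their regulators fell, Mtor among them, as did 2 of 9 translation targets, against 11.2% of all genes called lower. Also lower were 1 of 5 receptors (Erbb2), 1 of 7 adaptors, 1 of 11 PI3K and Akt genes (Gsk3b) and 0 of 11 ligands and binding proteins. Whether the roles differ in these small counts was not tested. Eef2k, the kinase that slows elongation of protein chains, had a lowest, median and highest value of -2.00, -1.44 and -0.63 in Hypoxia animals and 0.10, 0.32 and 0.45 in Normal animals, a change of -1.72 ± 0.25 (limma adjusted p = 0.000164). Stk11, the kinase upstream of AMP-activated kinase, had -0.74, -0.36 and 0.06 in Hypoxia animals and 0.91, 1.31 and 2.76 in Normal animals, a change of -1.99 ± 0.38 (limma adjusted p = 0.00164). Eif4b, a cofactor of the helicase of translation initiation, had -3.96, -1.81 and -1.09 in Hypoxia animals and -0.77, -0.50 and -0.40 in Normal animals, a change of -1.53 ± 0.31 (limma adjusted p = 0.00292). Hypoxia and Normal animals did not overlap for any of these 3 genes, as held for 6.98% of all tested genes. With probes admitted that had values in at least 2 animals per group, Stk11 changed by -1.09 and was not called (limma adjusted p = 0.284).

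The remaining 3 genes that fell were Grb14, an adaptor that inhibits the insulin receptor (-2.11 ± 0.51, limma adjusted p = 0.00939), Prkaa2, a catalytic subunit of AMP-activated kinase (-1.59 ± 0.46, adjusted p = 0.0264), and Ddit4, an inhibitor of mTOR complex signalling known as REDD1 (-1.58 ± 0.45, adjusted p = 0.0268). Ddit4 had a value in 4 of 6 Hypoxia animals, from -4.75 to -1.67, against -1.45 to -0.61 in Normal animals. Without Hypoxia animal 5 its change was -0.89 and was not called (limma adjusted p = 0.0864), and the call was also lost without Normal animal 2 (-1.55) or 6 (-1.49). Prkaa2 lost its call without Hypoxia animal 5 (-1.47) and without Normal animal 1 (-1.51), 2 (-1.53) or 6 (-1.51), with limma adjusted p up to 0.0581. Grb14 changed by -1.44 (limma adjusted p = 0.0591) without the 2 arrays that held the fewest values, which belong to Hypoxia animals 3 and 4. Over the settings tried, Ddit4 lost its call in 4 of 16 (limma adjusted p up to 0.246). Grb14 and Prkaa2 lost theirs in 2 of 17 each (adjusted p up to 0.156 and 0.0915).

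Other listed genes of the pathway did not pass the test in Hypoxia against Normal animals. The insulin-like growth factor receptor Igf1r differed by -0.68 ± 0.31 (limma adjusted p = 0.151) and the substrate Irs2 by -0.43 ± 1.07 (limma adjusted p = 0.838). Akt1 differed by -0.49 ± 0.46 (limma adjusted p = 0.524) and Akt2, the Akt form most tied to glucose uptake, by -1.63 ± 0.62 (limma adjusted p = 0.0915). Tsc2, an inhibitor of mTOR, differed by -1.48 ± 0.58 (limma adjusted p = 0.102) and the mTOR partner Rptor by -0.91 ± 0.87 (limma adjusted p = 0.54). The targets of mTOR in translation, Rps6kb1 and Eif4ebp1, differed by 0.08 ± 0.15 and -0.47 ± 0.19 (limma adjusted p = 0.794 and 0.103). None of these reached the threshold, and the errors of Irs2 and Rptor leave wide ranges open to either direction.

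In the FoxO branch 1 of 13 tested genes was called in Hypoxia against Normal animals, which is 7.69% against 12% of all genes. Foxo1 and Foxo3, the transcription factors upstream of atrophy genes, differed by -0.38 ± 0.28 and 0.22 ± 0.21 between Hypoxia and Normal animals (limma adjusted p = 0.405 and 0.543). Trim63, the muscle ubiquitin ligase MuRF1, differed by -0.64 ± 0.51 (limma adjusted p = 0.444), and the called gene of this role was Fbxo32. Gsk3a, the relative of Gsk3b, differed by 0.36 ± 0.68 (limma adjusted p = 0.781), and the ErbB ligand Nrg1 by 0.03 ± 0.39 (limma adjusted p = 0.978). Whether Gsk3a and Gsk3b differ in their change was not tested. Insr, Pik3r1, Erbb3 and Erbb4 were on the array with too few values to be tested, and Rictor was not analysed here.

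**Figure D5:**
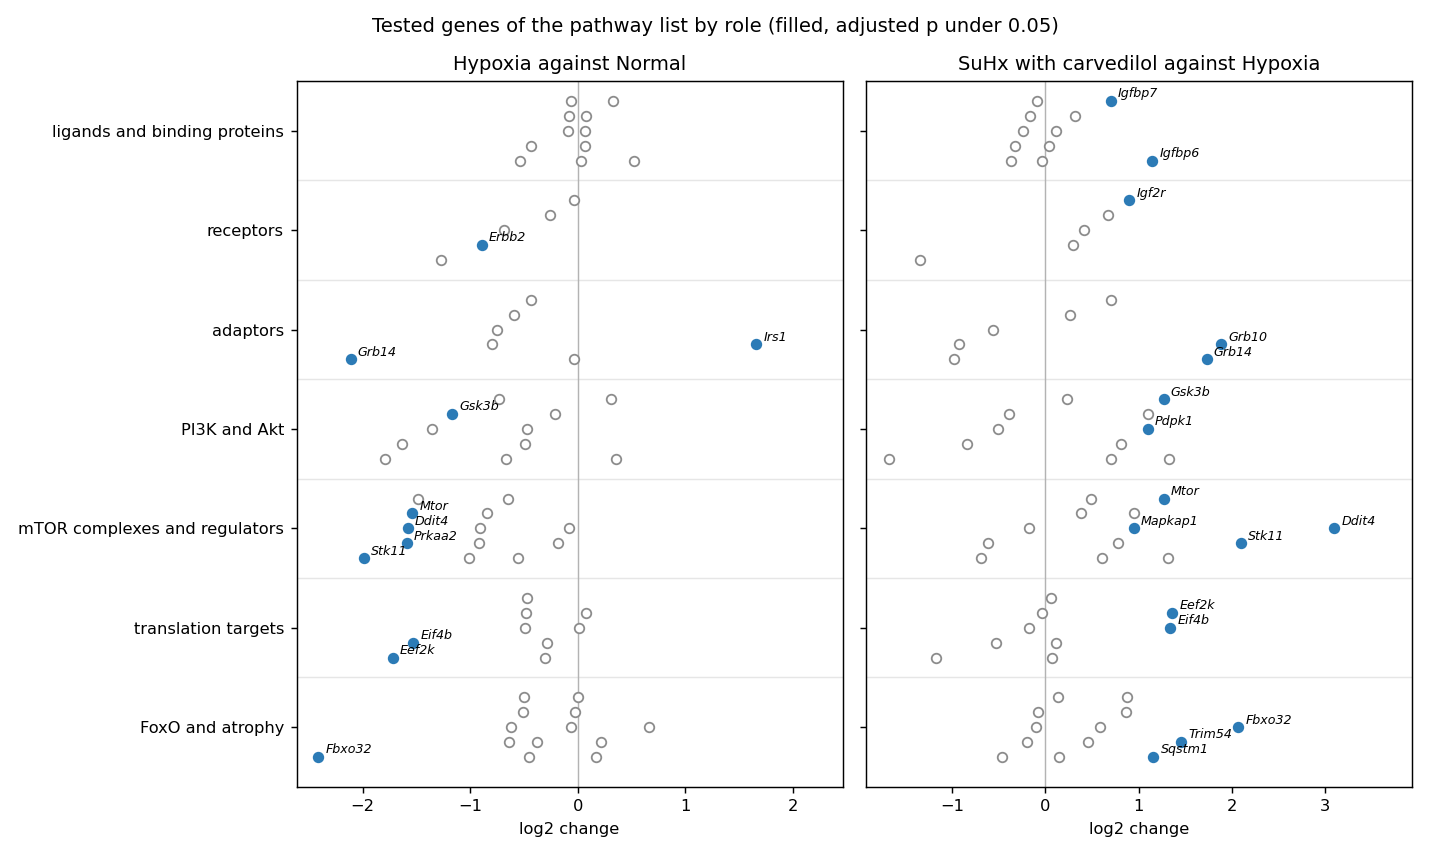
Log2 change (x axis) of the 69 tested genes of the pathway list by role (y axis), in Hypoxia against Normal animals and in SuHx with carvedilol against Hypoxia animals. Filled and named points passed a limma adjusted p under 0.05. On the left 10 of the 11 called genes lie below 0, and on the right all 16 lie above 0.

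In SuHx against Hypoxia animals 13 of the 69 pathway genes rose and 0 fell, which is 18.8% against 9.46% of all genes called higher. Without the 6 genes, 10 of 63 rose and 0 fell (15.9%). Stk11 rose by 2.05 ± 0.38 (limma adjusted p = 0.00133), with a median of 1.67 in SuHx animals against -0.36 in Hypoxia animals. Eef2k rose by 1.30 ± 0.25 (limma adjusted p = 0.00166), Ddit4 by 2.01 ± 0.45 (adjusted p = 0.00658, 4 Hypoxia animals) and Grb14 by 2.14 ± 0.51 (adjusted p = 0.00881). Prkaa2 rose by 1.91 ± 0.46 (limma adjusted p = 0.00918) and Eif4b by 1.17 ± 0.31 (adjusted p = 0.0177). For all 6 of these genes the SuHx and Hypoxia animals did not overlap, as held for 7.16% of all genes. With probes admitted that had values in at least 2 animals per group, Stk11 differed by 1.11 and was not called (limma adjusted p = 0.292). Eif4b kept its call with the probe that had values on the most arrays and without the 2 arrays with the fewest values, at 0.69 and 0.71 (limma adjusted p = 0.00206 and 0.024), as did Ddit4 without Hypoxia animal 5, at 1.32 (adjusted p = 0.0148). Over the settings tried, Eif4b lost its call in 1 of 17 (limma adjusted p up to 0.115). Ddit4 lost it in 2 of 16 and Grb14 in 2 of 17 (adjusted p up to 0.0977 and 0.157), while Eef2k and Prkaa2 kept theirs in all 17. Since the Hypoxia animals are those that were set against Normal, these rises and the falls above share their values and do not stand as separate evidence. Of the cell type markers, 2 of 6 macrophage (median change 1.21), 1 of 8 cardiomyocyte (0.42), 1 of 5 fibroblast and 1 of 3 atrial markers were higher in SuHx than in Hypoxia animals and 1 of 2 adipocyte markers was lower. The mean level of the 6 macrophage markers ran from 2.19 to 3.83 over SuHx animals and from 1.15 to 2.26 over Hypoxia animals, and their part in the changes of the pathway genes was not tested.

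In SuHx with carvedilol against Hypoxia animals 16 of the 69 rose and 0 fell, which is 23.2% against 10.1% of all genes called higher. Leaving out the 6 genes, 13 of 63 rose and 0 fell (20.6%). Ddit4 had the lowest adjusted p of the 16, with a change of 3.10 ± 0.45 (limma adjusted p = 0.000101). Its lowest, median and highest values were -0.77, 0.62 and 1.08 in SuHx with carvedilol animals, against -4.75, -2.11 and -1.67 in the 4 Hypoxia animals with a value. Stk11 rose by 2.10 ± 0.38 (limma adjusted p = 0.00056), Eef2k by 1.36 ± 0.25 (adjusted p = 0.000622) and the autophagy receptor Sqstm1, also called p62, by 1.16 ± 0.22 (adjusted p = 0.000986). Grb10, an adaptor that inhibits the insulin receptor, rose by 1.89 ± 0.43 (limma adjusted p = 0.00443). With probes admitted that had values in at least 2 animals per group, Stk11 differed by 1.47 and Sqstm1 by 0.58, and neither was called (limma adjusted p = 0.121 and 0.144). Grb10 kept its call at 0.84 with the probe that had values on the most arrays and with values in all 6 animals (limma adjusted p = 0.00702 and 0.00324), and Eif4b, at 1.34 among the genes called, was at 0.83 with that probe (adjusted p = 0.000223). Over the 18 settings tried, Eif4b lost its call in 2 and Eef2k in 1 (limma adjusted p up to 0.254 and 0.179). Stk11 and Sqstm1 lost theirs in 2 each, and Grb10 kept its call in all 18.

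Markers of cell types moved in the same comparison. Of 8 cardiomyocyte markers, 6 were higher in SuHx with carvedilol than in Hypoxia animals, with a median change of 1.84, and their mean level ran from 5.19 to 6.57 over SuHx with carvedilol animals and from 3.91 to 5.04 over Hypoxia animals, without overlap. Also higher were 3 of 6 macrophage markers (median change 1.00), 1 of 6 endothelial, 1 of 3 smooth muscle and pericyte and 1 of 3 atrial markers, and 0 of 5 fibroblast and 0 of 2 adipocyte markers were called. Cardiomyocyte markers were also higher in SuHx with carvedilol animals for 5 of 8 against Normal (median change 1.51), along with 2 of 6 macrophage, 1 of 6 endothelial and 1 of 3 smooth muscle and pericyte markers, and for 3 of 8 against SuHx (median change 1.47). In SuHx against Normal animals 0 of 8 cardiomyocyte and 1 of 3 smooth muscle and pericyte markers were higher. The part of these markers in the changes of the pathway genes was not tested.

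Carvedilol animals differed from Normal animals in 3 of the 69 genes, all of them higher, which is 4.35%, against 10.5% of all genes called either way (2.18% higher and 8.34% lower). Sqstm1 had a lowest, median and highest value of 0.00, 0.83 and 1.40 in SuHx with carvedilol animals and -0.71, -0.25 and -0.09 in Normal animals. Those groups did not overlap, as held for 9.69% of all genes, and the change was 1.10 ± 0.22 (limma adjusted p = 0.00297). It was 0.63 and not called with probes admitted that had values in at least 2 animals per group (limma adjusted p = 0.131), and 1.84 with the probe that had values on the most arrays (adjusted p = 0.00266). Ddit4 rose by 1.52 ± 0.40 (limma adjusted p = 0.0197) and Igfbp7, a binding protein of insulin-like growth factors, by 0.77 ± 0.21 (limma adjusted p = 0.0209). Igfbp7 lost its call with arrays scaled to equal spread (0.40, limma adjusted p = 0.295), with quantile normalisation (0.63, adjusted p = 0.0615) and without Normal animal 3 (0.66, adjusted p = 0.0559). With the first technical array of each animal none of the 3 was called: Ddit4 was at 1.26, Sqstm1 at 0.90 and Igfbp7 at 0.78 (limma adjusted p = 0.208, 0.116 and 0.0812). Neither SuHx against Normal nor SuHx with carvedilol against SuHx had a called gene among the 69 by limma.

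Each of the 6 genes was set beside other tested genes to find those with the most alike pattern over animal means. This is a description over 20 to 24 animals that includes the differences between groups. Placeholder symbols, which start with LOC, RGD, MGC or AABR, and genes with values in under 20 shared animals were left out. Gsk3b was most like Trub2 and Spg7 (Pearson r = 0.91 for both), and Mtor most like Klc1 (r = 0.90) and Psmd3 (r = 0.89). Erbb2 was most like Asb1 (r = 0.88) and Wdpcp (r = 0.84), and Fbxo32 most like Or10j3b (r = 0.84) and Eepd1 (r = 0.83). Igf1 was most like Cyp2b15 (r = 0.74) and Cmahp (r = 0.73), and Irs1 most like Nectin4 (r = 0.73) and Taf9 (r = 0.70). These genes are the highest of those left of the 9775 after that exclusion, and all values of an animal come from the same arrays.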

How the data were processed

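The authors deposited normalised log2 ratios of ventricle RNA (Cy5) over reference RNA (Cy3), per spot and array. Per the series' design text, spots were read with GenePix Pro 5.0 and normalised within each array by lowess with marray. A deposited table is titled log10, but values from -13.6 to 14.0 were read as log2. For 34.9% of cells no value was listed, and no spot filter or reason for this is stated in the labels or the design text. Array medians lay between -0.14 and 0.06. Spots, then arrays of an animal, were averaged, so n counts animals. Probes with values in at least 4 of 6 animals of every group were kept (21567), and those of a gene were averaged. Gene names came from the platform annotation: 25353 of 43379 spots had 1 gene, and spots with several (48) or none (17978) were left out. The 6 genes, the gene lists and the tests were chosen with earlier results of these data known.

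The limma package 3.58.1 under R 4.3.3 was used to fit a mean per group (lmFit, contrasts.fit, eBayes) over all 24 animals, with 20 residual and 2.44 prior degrees of freedom. A gene was called at a two-sided Benjamini-Hochberg adjusted p under 0.05 over 9775 genes. Errors after ± are standard errors. Names given were the 6 genes, up to 8 called pathway genes with the lowest adjusted p per comparison and a fixed set of pathway genes. For each of the 6, the 2 genes with the highest Pearson r were named too. The promoter tables are of build GRCr8. The code was tested on simulated data: for Hypoxia against Normal, 60% of 100 genes changed by a log2 of 2 and 30% of those changed by 1 were called, and 7.22% of calls were false. The labels call the animals biological replicates. The number of animals limits the precision, with a median standard error of 0.43 for Hypoxia against Normal. Saturation and signal over background were not analysed here.

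Alternatives tried were quantile and equal-spread scaling, centring, other filters on values, another probe rule, fits of 2 groups alone, single technical arrays, arrays or animals left out, a replicate block, animal weights, another moderation and the other deposited table. The other probe rule took the probe with values on the most arrays, and among ties that with the highest mean level. Settings chosen after seeing the data are named as such.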

Additional observations from a re-analysis of the deposited data

How the results depend on the processing

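For the 6 genes in Hypoxia against Normal, 5 calls held in all 12 fits that left out 1 animal. Deviations of same-numbered animals correlated over 0.1 in 4 of 36 pairs (r from -0.259 to 0.183). Differently numbered animals were not set beside them, so these values cannot decide whether the replicate numbers pair the animals. With the replicate block the calls of the 6 genes stayed at 5 (Hypoxia against Normal), 3 (SuHx against Hypoxia) and 3 (SuHx with carvedilol against Hypoxia), while 42 in place of 89 genes were called in SuHx against Normal and 38 in place of 83 in SuHx with carvedilol against SuHx. The counts of genes called depend on the setting, as do some calls of the 6 genes. Where no setting below is named, the count lay within 1.5 times its main value. The cause of the shifts was not tested.

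With first technical arrays alone, 3 of the 6 genes were called in Hypoxia against Normal: Irs1 lost its call, and Fbxo32 had too few values to be tested there, as also with values in all 6 animals. Fbxo32 was called in this comparison in all 15 settings that tested it. In SuHx against Hypoxia and in SuHx with carvedilol against Hypoxia 1 was called in each with only the 2 groups fitted. In SuHx with carvedilol against Normal 1 (Erbb2) was called with equal spread, with values in all 6 animals and with animal weights (limma adjusted p = 0.0453, 0.0449 and 0.0478), and in SuHx against Normal 1 (Mtor, -0.66, adjusted p = 0.0354) with animal weights. Erbb2 in Hypoxia against Normal lost its call with values in at least 2 animals (-1.64, adjusted p = 0.0657, the second probe entering) and with 2 groups fitted (adjusted p = 0.065). In SuHx against Hypoxia, Mtor lost its call with quantile normalisation (0.80, adjusted p = 0.0667), with 2 groups fitted and with first technical arrays, and Fbxo32 with values in at least 2 animals and with 2 groups fitted.

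Signs turned only where no change was called in the main fit, other than Igf2r in SuHx with carvedilol against Hypoxia, at -0.20 (limma adjusted p = 0.851) in place of 0.90 with values in at least 2 animals. Igf1 in Hypoxia against Normal was 0.03 with quantile normalisation and 0.00 with animal weights, and in SuHx against Normal -0.05 with the probe on the most arrays. First technical arrays gave 0.04 for Gsk3b in SuHx against Normal and 0.18 for Irs1 in SuHx with carvedilol against SuHx. Animal weights gave 0.05 for Fbxo32 in SuHx with carvedilol against Normal, and leaving out arrays with under 5 of 10 spots gave 0.14 for Irs1 in SuHx against Hypoxia. Without 1 animal, Fbxo32 ran from -0.72 to 0.26 (SuHx with carvedilol against Normal) and from -0.05 to 0.94 (against SuHx), Irs1 from -0.28 to 0.01 (SuHx with carvedilol against SuHx), Gsk3b from -0.14 to 0.09 (SuHx against Normal) and from -0.01 to 0.22 (SuHx with carvedilol against Normal), and Igf1 from -0.22 to 0.02 (Hypoxia against Normal).

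Over all genes, Hypoxia against Normal had 1777 called with equal spread, 745 with values in at least 2 animals and 654 with 2 groups fitted, in place of 1177. SuHx against Normal had 233 with quantile normalisation, 297 with equal spread, 43 and 279 with values in at least 2 and in all 6 animals, 197 with the probe on the most arrays, 428 with 2 groups fitted, 14 with first technical arrays, 217 without the 2 arrays with the fewest values and 1059 with animal weights, in place of 89. SuHx against Hypoxia had 717 with values in at least 2 animals and 578 with 2 groups fitted, in place of 1099. SuHx with carvedilol against SuHx had 139 with equal spread, 37 and 167 with values in at least 2 and in all 6 animals, 149 with the probe on the most arrays, 1 with 2 groups fitted, 1 with first technical arrays, 195 without the 2 arrays and 193 with animal weights, in place of 83. SuHx with carvedilol against Normal had 675 with values in at least 2 animals, 430 with first technical arrays and 1779 with animal weights, in place of 1028. SuHx with carvedilol against Hypoxia had 553 with 2 groups fitted, 1060 with animal weights and 145 between animals numbered over 100, in place of 1606. Calls higher were 6.97% of calls in Hypoxia against Normal and 19.4% with quantile normalisation, under which the median change of all genes was -0.28 in place of -0.38. In SuHx against Normal they were 42.7%, and 28.6% with equal spread.

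Pathway genes called in Hypoxia against Normal numbered 19 with animal weights in place of 11. For SuHx against Normal, in place of 0, they were 1 each with equal spread, with quantile normalisation and without the 2 arrays with the fewest values, 3 with values in all 6 animals, 2 with the probe on the most arrays and with 2 groups fitted, and 11 with animal weights. In SuHx against Hypoxia they were 6 with 2 groups fitted, in place of 13. In SuHx with carvedilol against SuHx 1 was called without the 2 arrays, in place of 0. In SuHx with carvedilol against Normal, in place of 3, they were 6 with equal spread and with values in all 6 animals, 7 with the probe on the most arrays, 5 with 2 groups fitted, 0 with first technical arrays, 8 without the 2 arrays and 15 with animal weights. In SuHx with carvedilol against Hypoxia, in place of 16, they were 6 with 2 groups fitted and 3 between animals numbered over 100.

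Leaving out 1 animal at a time, all genes called ran from 772 to 1178 (Hypoxia against Normal), 31 to 126 (SuHx against Normal), 771 to 1121 (SuHx against Hypoxia), 9 to 99 (SuHx with carvedilol against SuHx), 713 to 989 (against Normal) and 1418 to 1642 (against Hypoxia). Of the 6 genes, those called ran from 2 to 4 in SuHx against Hypoxia and from 3 to 4 in SuHx with carvedilol against Hypoxia, the fourth being Irs1 without Hypoxia animal 1 (-1.14, limma adjusted p = 0.0425). Pathway genes called ran from 9 to 15, 10 to 15, 2 to 5 and 14 to 18 in Hypoxia against Normal, SuHx against Hypoxia, and SuHx with carvedilol against Normal and against Hypoxia. The counts of 0 called among the 6 genes and the 69 pathway genes in SuHx against Normal stand beside 1207 of 9775 genes at an unadjusted limma p under 0.05. In SuHx with carvedilol against SuHx such counts of 0 stand beside 1604.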
